A study of Rattus norvegicus with 18 samples.

Results

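The 6 genes of male rat liver described here are Cyp2c11, 3 urinary protein genes (Mup4, Mup4l1 and Mup4l3), Car3 and Dhrs7l1. They were chosen by the size of their mean differences between treated and control livers in these same arrays, among genes under growth hormone pulses, so their values in treated livers are given as a description, with no test. The 6 were among 10914 genes tested and 15642 genes that probes could be matched to. Each gene is represented by the probe with the highest mean signal over all arrays.

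In the rat, the pituitary of males releases growth hormone in separated pulses and that of females releases it more evenly, and hepatocytes read this pattern through the growth hormone receptor, the kinase JAK2 and the transcription factor STAT5b. Cyp2c11 is the classic male-specific product of this axis, a cytochrome P450 that hydroxylates testosterone and other substrates. The urinary proteins are small lipocalins that the liver secretes and the kidney passes into urine, where they carry pheromones, and androgens as well as growth hormone raise them. Car3 is a cytosolic carbonic anhydrase that is far more abundant in male than in female rat liver, and Dhrs7l1 belongs by name to the short-chain dehydrogenases and reductases.

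Liver RNA came from male F344 rats given DEN, CCl4 or neither, with 3 rats per group and day and 1 Agilent one-colour array per rat. DEN (diethylnitrosamine, a genotoxic liver carcinogen) was given at 4 mg/kg in saline and CCl4 (carbon tetrachloride, a liver toxicant) at 100 mg/kg in corn oil, each daily by gavage in 5 mL/kg for 28 or 84 days. The controls were untreated on a basal diet per the protocol, although their titles call them vehicle, so whether they received a gavage is not settled. All rats were bought at 5 weeks of age and acclimatised for 1 week.

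Values are log2 processed signals minus the 75th percentile of the same array (called scaled log2 signals below), and they may be compared between arrays for 1 probe, not between genes. That percentile lay between 169.8 and 325.5 signal units, 47.2 to 57.0% of probes were well above background, and replicate arrays correlated at 0.976 to 0.996 over probes. All 8 hepatocyte genes looked at, albumin among them, were well above background on all 18 arrays. The arrays lay on 3 slides: slide 1 held day 28 except for replicate 3 of the CCl4 group, which lay on slide 2 with day 84, and slide 3 held replicates 2 and 3 of CCl4 at day 84.

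Promoter windows (250 bases before to 50 bases after the annotated start, RefSeq, GRCr8 build) were available here for 5 of the 6 genes. Those of Cyp2c11 and the 3 urinary protein genes are shown because they carry shared motifs and because the urinary genes are close copies. Capitals mark matches to TATAAA (the TATA box), to ATTGAT on either strand (the core of HNF6 sites, here read as ATCAAT on the other strand) and to TTCNNNGAA (the letters of a STAT5 site).
Cyp2c11: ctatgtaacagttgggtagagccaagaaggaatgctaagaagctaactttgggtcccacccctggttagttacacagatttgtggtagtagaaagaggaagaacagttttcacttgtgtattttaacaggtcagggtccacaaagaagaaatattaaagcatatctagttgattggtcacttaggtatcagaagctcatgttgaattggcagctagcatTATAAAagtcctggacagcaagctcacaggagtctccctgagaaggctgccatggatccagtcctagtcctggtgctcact
Mup4: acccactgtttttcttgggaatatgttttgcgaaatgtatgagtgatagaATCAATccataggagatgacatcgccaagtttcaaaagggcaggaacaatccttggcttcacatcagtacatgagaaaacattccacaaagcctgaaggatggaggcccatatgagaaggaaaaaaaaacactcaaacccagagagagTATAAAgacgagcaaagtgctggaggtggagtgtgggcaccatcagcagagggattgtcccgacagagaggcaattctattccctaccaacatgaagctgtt
Mup4l1: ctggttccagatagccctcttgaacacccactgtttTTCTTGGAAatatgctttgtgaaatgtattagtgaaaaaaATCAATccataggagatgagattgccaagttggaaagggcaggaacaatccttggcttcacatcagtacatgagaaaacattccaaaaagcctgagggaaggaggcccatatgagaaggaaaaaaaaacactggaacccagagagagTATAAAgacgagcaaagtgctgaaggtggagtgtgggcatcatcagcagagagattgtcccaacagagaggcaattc
Mup4l3: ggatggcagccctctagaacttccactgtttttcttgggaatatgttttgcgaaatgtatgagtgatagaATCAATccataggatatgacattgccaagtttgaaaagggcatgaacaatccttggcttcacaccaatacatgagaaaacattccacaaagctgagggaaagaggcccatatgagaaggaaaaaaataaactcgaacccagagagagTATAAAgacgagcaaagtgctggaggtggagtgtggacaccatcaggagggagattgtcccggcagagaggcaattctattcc

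The Cyp2c11 window lies at chr1:246174966-246175265 on the plus strand and holds TATAAA 31 bases before the start. The Mup4 window lies at chr5:79759447-79759746, that of Mup4l1 at chr5:80226485-80226784 and that of Mup4l3 at chr5:80318323-80318622, all on the minus strand. All 3 hold TATAAA, 52, 27 and 33 bases before their starts in that order, and ATCAAT 200, 174 and 180 bases before them. The start used for Mup4l1 lies inside the annotated span of the gene, which reaches chr5:80226566, and distances in its window count from that inner start. TTCNNNGAA occurred in the Mup4l1 window alone among the 5, at 214 bases before the start as TTCTTGGAA. On both strands of all 33469 windows of this length, TATAAA occurred in 14.22%, ATTGAT in 8.06% and TTCNNNGAA in 8.87%. A match describes letters and not a bound site, and the Dhrs7l1 window, with none of the 3, may hold other forms of them. The urinary gene windows were identical at 92.4% of 276 aligned positions between Mup4 and Mup4l1, at 92.9% of 281 between Mup4 and Mup4l3, and at 88.5% of 296 between Mup4l1 and Mup4l3.

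The 3 urinary protein genes lie within 562.2 kb of chromosome 5, at chr5:79756142-79759496 (Mup4), chr5:80223093-80226566 (Mup4l1) and chr5:80314061-80318373 (Mup4l3). The other 3 genes are on other chromosomes, Cyp2c11 at chr1:246175216-246211445, Car3 at chr2:88491666-88501299 and Dhrs7l1 at chr6:97025094-97047899.

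At day 28, Cyp2c11 had scaled log2 signals of 8.83, 8.96 and 9.0 in DEN livers, 5.38, 1.16 and 6.41 in CCl4 livers (replicates 1, 2 and 3 throughout), and 9.78, 9.70 and 9.67 in control livers. By day 84 the values were 7.71, 6.64 and 8.16 in DEN livers, 0.27, 1.66 and 1.56 in CCl4 livers, and 9.46, 9.46 and 9.38 in control livers. Every treated array lay below every control array of its day, and the spread was widest among the CCl4 livers of day 28. The mean was 8.93 ± 0.09 with DEN and 4.32 ± 2.78 with CCl4 against 9.72 ± 0.06 in controls at day 28, and 7.50 ± 0.78 with DEN and 1.17 ± 0.77 with CCl4 against 9.43 ± 0.04 in controls at day 84 (SD, n = 3 each). In log2 terms the DEN groups were at -0.79 (day 28) and -1.93 (day 84) relative to controls, and the CCl4 groups at -5.40 and -8.27. These are 1.73-fold and 3.82-fold lower means with DEN and 42.3-fold and 308-fold lower means with CCl4. In whole liver, fewer cells of the type that makes an RNA and less of that RNA per cell cannot be told apart. By mean, the order from highest to lowest was control day 28, control day 84, DEN day 28, DEN day 84, CCl4 day 28 and CCl4 day 84, and among neighbours in this order only the 2 CCl4 groups overlapped.

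**Figure D1:**
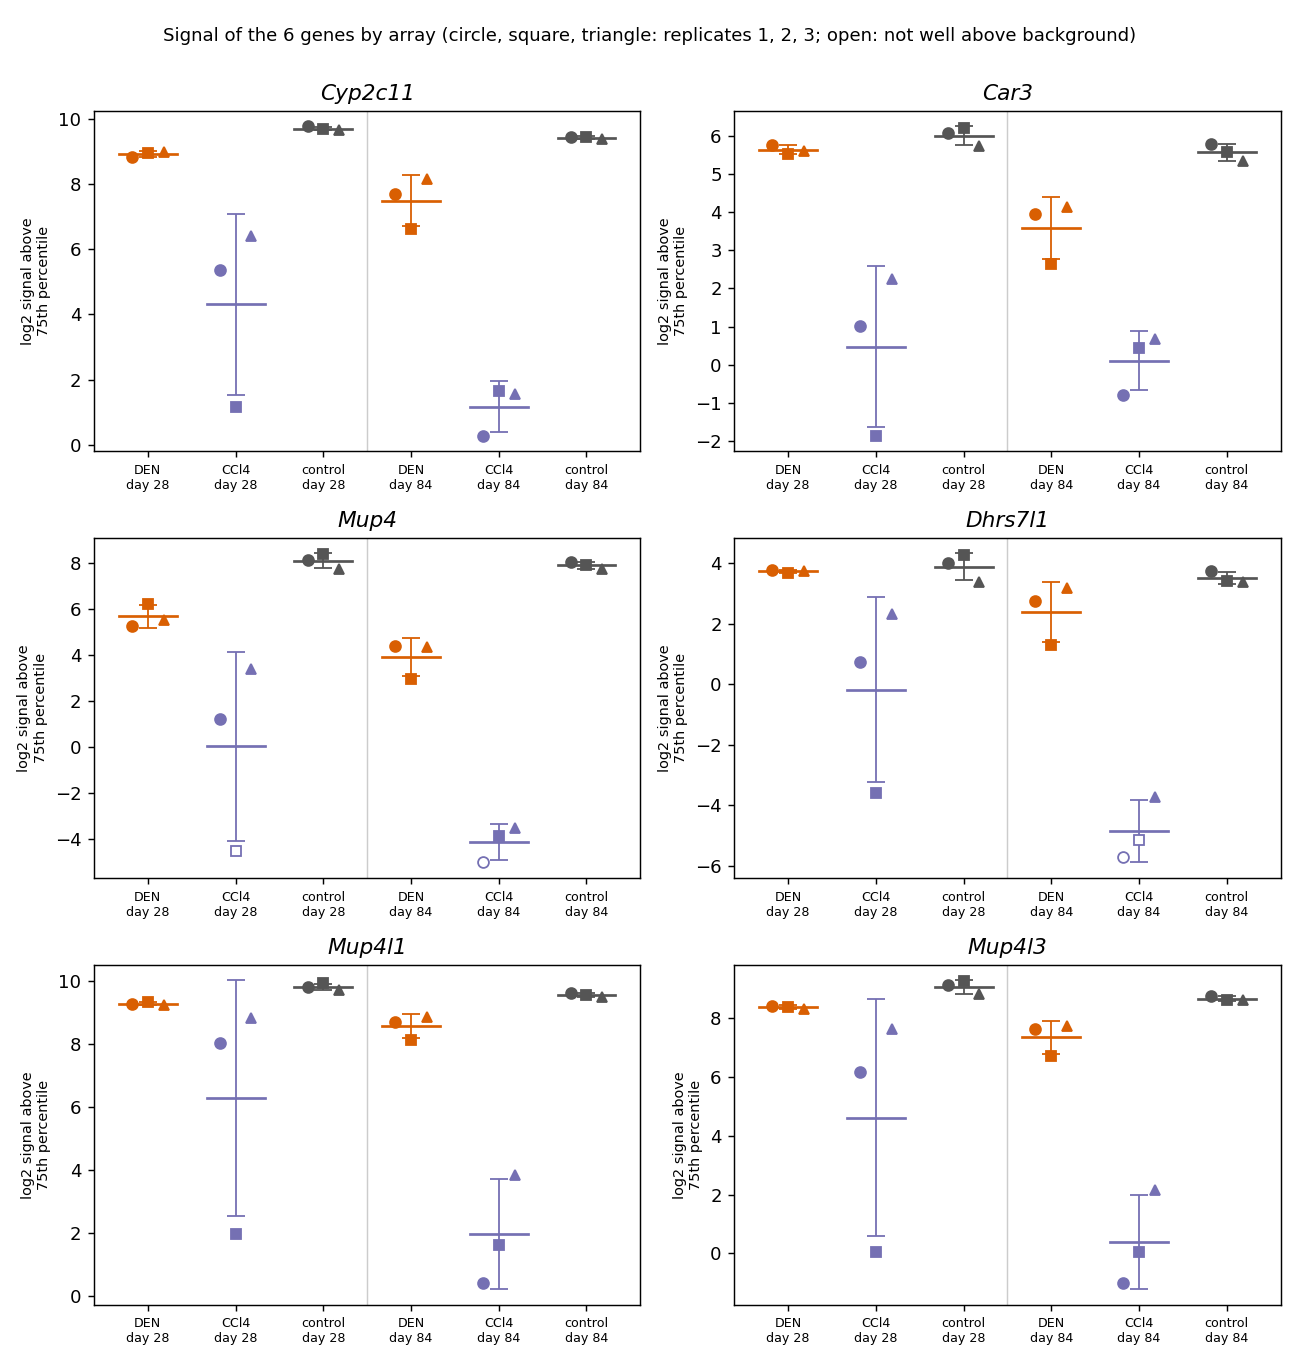
Scaled log2 signal (y axis) of the 6 genes in each of 18 arrays, by group (x axis), with the mean and SD of 3 arrays per group. Circles, squares and triangles are replicates 1, 2 and 3, and open symbols are arrays on which the probe was not well above background. Cyp2c11 runs from 9.78 in a control liver to 0.27 in a CCl4 liver of day 84, and in all 6 panels the square of the CCl4 day 28 group lies lowest of its group.

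Mup4 had scaled log2 signals of 5.29, 6.22 and 5.55 in DEN livers, 1.24, -4.52 and 3.41 in CCl4 livers and 8.15, 8.41 and 7.75 in control livers at day 28. The day 84 values were 4.42, 2.98 and 4.36 in DEN livers, -5.01, -3.86 and -3.50 in CCl4 livers, and 8.06, 7.93 and 7.73 in control livers. Treated and control arrays did not overlap at either day. The Mup4 probe was well above background in 2 of 3 CCl4 arrays at each day. The group means differed by -2.42 and -3.99 (log2) with DEN and by -8.06 and -12.03 with CCl4, at day 28 and day 84. Mup4 was the one gene of the 6 whose mean with DEN at day 28 was more than 1 log2 unit below controls, 5.35-fold lower.

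Mup4l1 and Mup4l3 followed the same order of groups with smaller differences in DEN livers. Mup4l1 had 9.28, 9.33 and 9.24 in DEN livers, 8.03, 1.97 and 8.83 in CCl4 livers and 9.81, 9.92 and 9.73 in control livers at day 28. Its values at day 84 were 8.71, 8.12 and 8.84 with DEN, 0.41, 1.61 and 3.85 with CCl4, and 9.62, 9.56 and 9.5 in controls. The treated arrays thus lay below the controls in each comparison, and with CCl4 the first array of day 84 and the second of day 28 lay far below every DEN array. Mup4l3 had 8.43, 8.39 and 8.32 in DEN livers, 6.18, 0.03 and 7.62 in CCl4 livers and 9.12, 9.26 and 8.81 in control livers at day 28. At day 84 its values were 7.62, 6.70 and 7.72 with DEN, -1.02, 0.04 and 2.14 with CCl4, and 8.76, 8.64 and 8.61 in controls. Again no treated array reached its controls. Mean differences were -0.54 and -1.0 with DEN and -3.54 and -7.60 with CCl4 for Mup4l1, and -0.68 and -1.32 with DEN and -4.46 and -8.28 with CCl4 for Mup4l3, each at day 28 and day 84. For both genes the CCl4 group of day 28 overlapped the DEN group of day 84 and the CCl4 group of day 84.

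The urinary protein genes are near-identical copies, so a probe may also bind the RNA of its relatives, and the values are those of probes rather than of single genes. The probes of this family on the array fell into a pair of patterns, as described after their values were seen. In the first, 10 probes, among them both of Mup4l1, both of Mup4l3 and the other Mup4 probe, differed from controls by -0.35 to -0.73 with DEN at day 28. The remaining 3, the Mup4 probe used here, 1 Obp3 probe and 1 Mup4l4 probe, differed by -2.42, -3.02 and -2.79, and with CCl4 at day 28 by -8.06, -9.18 and -8.16. Probes annotated to the same gene thus stood in different patterns: for Mup4 the other probe gave -0.72 with DEN at day 28, -4.17 with CCl4 at day 28 and -2.31 with DEN at day 84. Which transcripts each probe binds was not tested.

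**Figure D2:**
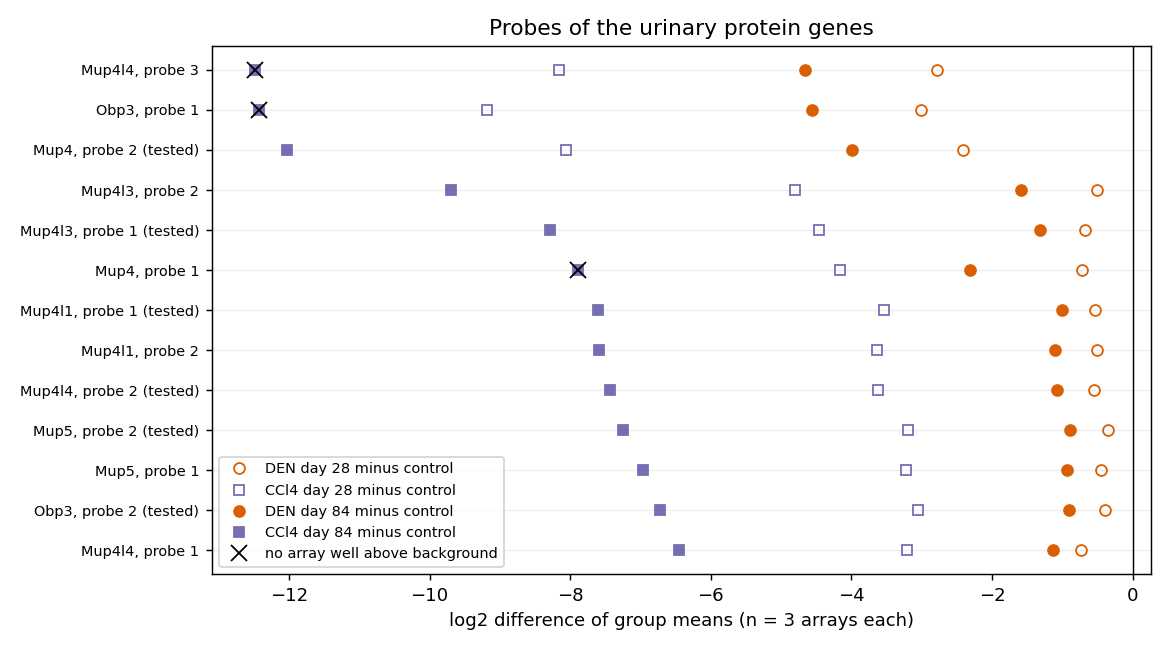
Log2 difference of treated and control group means (x axis, 3 arrays per group) for 13 probes of the urinary protein genes (rows). Circles are DEN and squares are CCl4, open at day 28 and filled at day 84, and crosses mark groups in which no array was well above background. The upper 3 probes lie between -2.42 and -3.02 with DEN at day 28, whereas the other 10 lie between -0.35 and -0.73.

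Car3 was close to controls with DEN at day 28 and lower in the other 3 treated groups. It had scaled log2 signals of 5.76, 5.52 and 5.61 in DEN livers, 1.03, -1.85 and 2.26 in CCl4 livers and 6.08, 6.19 and 5.73 in control livers at day 28. After 84 days it had 3.94, 2.64 and 4.14 with DEN, -0.78, 0.44 and 0.68 with CCl4, and 5.77, 5.57 and 5.34 in controls. At day 28 the highest DEN array lay above the lowest control, and elsewhere treated and control arrays did not overlap. Mean differences were -0.37 (DEN) and -5.52 (CCl4) at day 28 and -1.99 (DEN) and -5.45 (CCl4) at day 84. The CCl4 means of Car3 at day 28 and day 84, 0.48 ± 2.11 and 0.11 ± 0.78 (SD, n = 3 each), were the closest pair among the 6 genes and their arrays overlapped.

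Dhrs7l1 had 3.77, 3.67 and 3.75 in DEN livers, 0.72, -3.59 and 2.32 in CCl4 livers and 3.99, 4.26 and 3.38 in control livers at day 28. In the livers of day 84 it had 2.74, 1.28 and 3.17 with DEN, -5.72, -5.14 and -3.71 with CCl4, and 3.74, 3.42 and 3.38 in controls. At day 28 the DEN arrays lay inside the range of the controls. Differences of the means were -0.15 (DEN) and -4.06 (CCl4) at day 28, and -1.12 (DEN) and -8.37 (CCl4) at day 84. With CCl4 at day 84 only replicate 3 was well above background. Dhrs7l1 was the one gene of the 6 whose CCl4 arrays at day 84 all lay below those at day 28.

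The median difference of the 6 genes was -0.61 for DEN and -4.93 for CCl4 at day 28, and -1.63 for DEN and -8.27 for CCl4 at day 84, against medians of all genes tested between -0.10 and -0.04. Treated arrays lay below all controls for 4 of 6 genes with DEN at day 28, and for 6 of 6 in each other comparison. Over all genes tested this was so for 25.8% (DEN, day 28), 34.6% (CCl4, day 28), 38.6% (DEN, day 84) and 40.8% (CCl4, day 84), while 17%, 26.1%, 26.3% and 31% lay wholly above, and since these contrasts chose the genes nothing is read from the counts. A difference below -1 log2 units was seen for 1 of the 6 with DEN at day 28 and for all 6 in each other comparison. Over all genes tested the shares were 1.18%, 7.49%, 4.8% and 6.64% in the same order of comparisons. The DEN and CCl4 comparisons of a day share their controls.

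The spread between rats was widest with CCl4 at day 28 for all 6 genes. With DEN and with CCl4 at day 84 the SD of every one of the 6 exceeded that of both control groups, whereas with DEN at day 28 it lay below that of the day 28 controls for 4 of 6. In the CCl4 group of day 28 the median of the 6 genes relative to the control mean was -3.75 in replicate 1, -8.21 in replicate 2 and -2.43 in replicate 3, and all 6 genes ranked these rats alike. In DEN livers of day 84 it was -1.34, -2.52 and -1.11, and replicate 2 was lowest for all 6 genes. In CCl4 livers of day 84 it was -9.19, -8.29 and -6.88, with replicate 1 lowest for all 6. DEN livers of day 28 spanned only -0.65 to -0.58 and showed no shared order. Among controls of day 84 all 6 genes also ranked the rats alike, over a range of 0.12 to -0.09, and among controls of day 28 the range was 0.20 to -0.26. Across the 18 arrays the 15 pairs of genes correlated at 0.892 to 0.997, and the deviations from group means at 0.924 to 0.995, which describes points that share RNA, array and scaling.

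**Figure D3:**
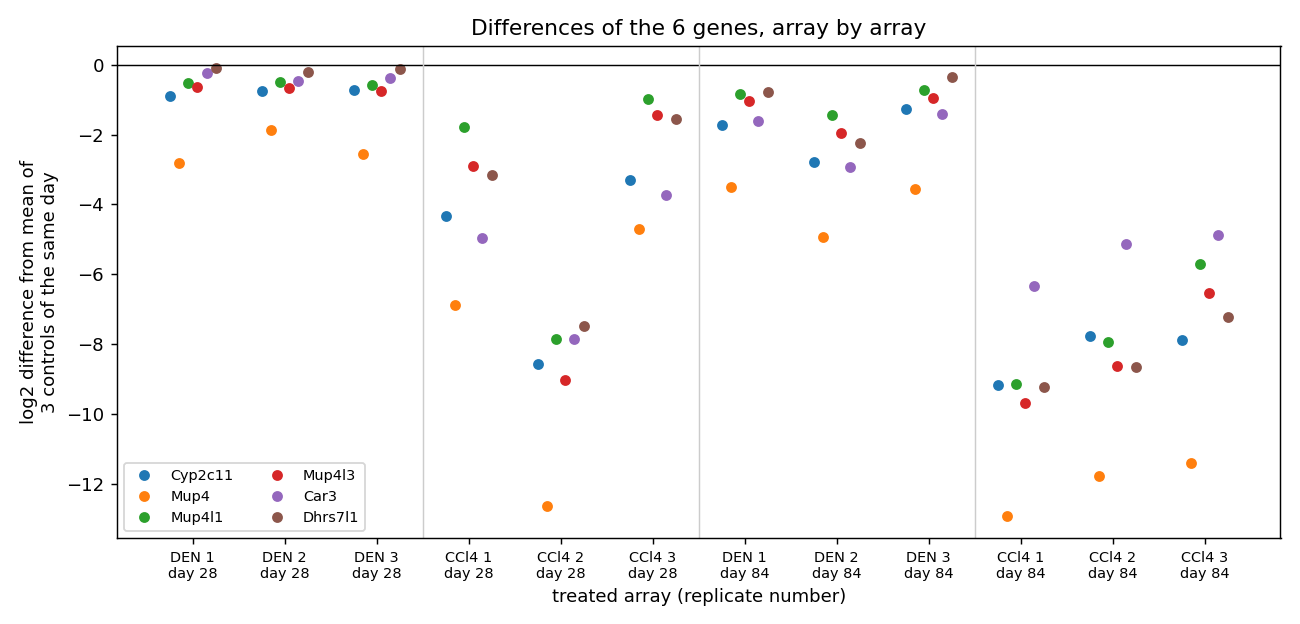
Log2 difference of each treated array from the mean of the 3 controls of its day (y axis) for the 6 genes (colours), in 12 treated arrays (x axis). The second CCl4 array of day 28 lies between -7.47 and -12.63, below both other arrays of its group in every gene, and in the DEN group of day 28 Mup4 alone lies below -1.

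The CCl4 results of day 28 rest in part on that second rat. Without it, the differences were -3.82 for Cyp2c11, -5.78 for Mup4, -1.39 for Mup4l1, -2.17 for Mup4l3, -4.36 for Car3 and -2.36 for Dhrs7l1, with a median of -3.09. The highest array of the group, replicate 3, lay on a slide with no other array of its day, and with slide 1 alone the median was -6.19. At day 84, replicate 1 was the only CCl4 array on the slide of its controls, and against them alone the median was -9.19. Beside this, the summed signal of 8 hepatocyte genes (relative to each array's 75th percentile) was 4586, 3586 and 4632 in CCl4 replicates 1, 2 and 3 of day 28, against 7805 to 8008 in controls. The summed signal of 8 stellate cell genes was 89.8, 170.2 and 91.3 in the same arrays, against 24.8 to 44.1 in controls. In DEN livers of day 84 replicate 2 again had the lowest hepatocyte sum (3901, against 4376 and 4556 in replicates 1 and 3), while its stellate sum was 35.6 beside 30.4 and 35.3. Their part in the falls was not tested.

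Between the untreated livers of day 84 and day 28, none of the 6 genes passed the test by limma with Benjamini-Hochberg adjustment over all genes tested, and none had an unadjusted p under 0.05. This comparison holds no treated array, though its controls were part of the contrasts that chose the genes. The differences were -0.28 ± 0.92 for Cyp2c11 (SE, adjusted p = 0.88), -0.20 ± 1.32 for Mup4 (adjusted p = 0.94), -0.26 ± 1.28 for Mup4l1 (adjusted p = 0.93), -0.40 ± 1.35 for Mup4l3 (adjusted p = 0.89), -0.44 ± 0.75 for Car3 (adjusted p = 0.76) and -0.36 ± 1.05 for Dhrs7l1 (adjusted p = 0.87). All 6 differences were below 0, and the day 84 arrays lay wholly below those of day 28 for 3 of 6 (Cyp2c11, Mup4l1 and Mup4l3), against 21.6% of all genes tested (14.3% lay wholly above). The shared error is set mostly by the CCl4 rats, so the lack of a call does not show that the levels were alike. Over all genes 5.32% were called lower and 4.44% higher. In a fit of only the control arrays the SEs were smaller, from 0.063 (Cyp2c11) to 0.24 (Dhrs7l1). There too none of the 6 was called (adjusted p = 0.055 for Cyp2c11 and 0.094 for Mup4l1, up to 0.53 for Mup4, limma). Each day's controls lay on a slide of their own. With slide as a block, where only 1 CCl4 array of day 28 shares a slide with day 84, the 6 differences were -5.24 to -3.10 (-3.43 for Cyp2c11 and -5.24 for Mup4) and still not called (adjusted p = 0.19 to 0.33, limma), so day and slide are not separated by these arrays.

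Other genes of the same axis were read from lists and tested with limma at an adjusted p under 0.05 over all genes. Some genes stand in more than one list (Cyp2c7, Cyp2c12, Cyp2c13 and Cyp2c22). Of 109 called values of the list genes named below, 35 lost their call and 6 turned sign when arrays were scaled to spike-in probes. Of all 274 called values of the lists, cell markers included, 77 lost their call and 40 turned sign on that scale. Of 12 other male-predominant liver genes, none was called with DEN at day 28 (3 were lower at an unadjusted p under 0.05), 8 fell and 1 rose with CCl4 at day 28, 7 fell and 1 rose with DEN at day 84, and 9 fell and 2 rose with CCl4 at day 84. Over all genes, 7.19% were called lower and 7.82% higher with DEN at day 28, 33.6% and 26.1% with CCl4 at day 28, 31.1% and 21.6% with DEN at day 84, and 36.3% and 28% with CCl4 at day 84. In a fit of only the DEN and control arrays of day 28, 7 of the 12 fell. Without CCl4 replicate 2 of day 28, 5 of the 12 fell with CCl4 at that day, as also without any 1 of its controls, and 4 fell with DEN at day 84 without its replicate 2 or without control replicate 1 or 3.

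Among the male-predominant genes, Cyp2a2, a steroid-hydroxylating P450, differed by -1.90 ± 0.34 with CCl4 at day 28 (adjusted p = 0.00026), -1.81 ± 0.34 with DEN at day 84 (adjusted p = 0.00058) and -1.69 ± 0.34 with CCl4 at day 84 (SE, adjusted p = 0.00056, limma). Slco1a1, an uptake transporter for organic anions, fell by 1.37, 1.57 and 0.93 log2 units in the same comparisons, and Nox4, an NADPH oxidase, fell by 4.33 and 3.56 in the first pair, where 1 array of 3 was well above background. On the spike-in scale Slco1a1 was not called with CCl4 at day 28 (-0.57) or day 84 (-0.38). With CCl4 at day 84 Nox4 was not well above background on any array and was at least 12.0-fold lower. Cyp2c13, another male-specific member of the Cyp2c family, had smaller differences than Cyp2c11. It fell by 0.90 and 0.98 with CCl4 at day 28 and DEN at day 84, and by 0.80 with CCl4 at day 84. On the spike-in scale these 3 values were -0.10, -0.27 and -0.26 with no call, and quantile scaling also ended the first call (-0.50). Obp3 and Mup5, urinary proteins whose probes may read the same transcripts as the Mup genes above, passed the test with CCl4 alone, at -3.05 (Obp3) and -3.19 (Mup5) at day 28 and -6.72 (Obp3) and -7.25 (Mup5) at day 84. Their day 28 calls were lost without CCl4 replicate 2, at -1.12 (Obp3) and -1.05 (Mup5), and without any 1 of the controls of day 28. With DEN the Obp3 probe used here differed by -0.39 at day 28 and -0.91 at day 84. The other Obp3 probe, which was not tested, differed by -3.02 and -4.56. The probes of Mup5 differed by -0.35 and -0.45 at day 28 and by -0.89 and -0.94 at day 84. Cyp7b1, an oxysterol hydroxylase that is also male-predominant, rose by 1.24 and 0.89 log2 units with CCl4 at day 28 and day 84, and Cyp3a2, a steroid hydroxylase, passed the test with DEN at day 84 alone (-1.27 ± 0.45, SE, adjusted p = 0.030, limma), but not without DEN replicate 2 (-0.72) or without control replicate 1 or 3 of that day.

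**Figure D4:**
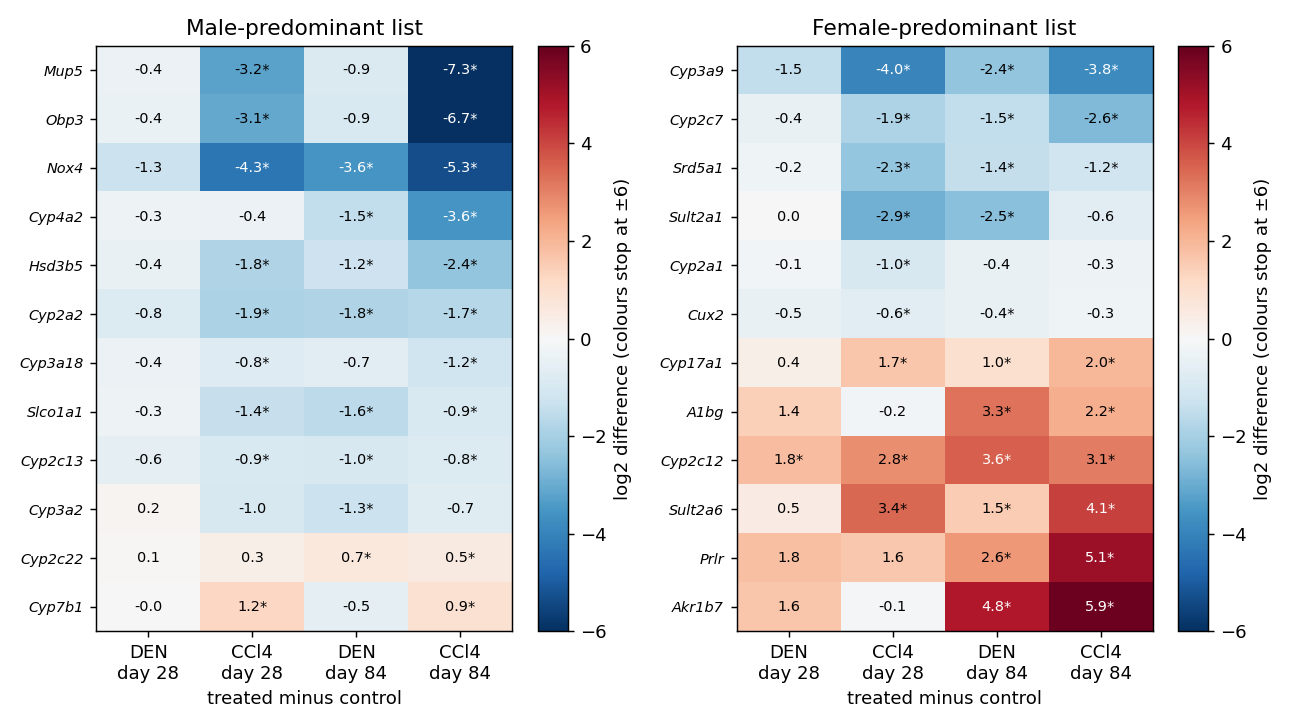
Log2 difference of treated and control means (numbers and colours, 3 arrays per group) for 12 male-predominant (left) and 12 female-predominant genes (right) in 4 comparisons (columns). Asterisks mark an adjusted p under 0.05 by limma. Cyp2c12 is the one gene of either list with an asterisk in all 4 columns, at 1.85 to 3.60.

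Female-predominant genes split. Of 12 tested, 1 rose with DEN at day 28, 3 rose and 6 fell with CCl4 at day 28, 6 rose and 5 fell with DEN at day 84, and 6 rose and 3 fell with CCl4 at day 84. Cyp2c12, the female-specific counterpart of Cyp2c11, had scaled log2 signals of 2.98, 3.17 and 2.96 in DEN livers, 4.01, 4.06 and 3.88 in CCl4 livers and 1.12, 1.24 and 1.21 in control livers at day 28. The day 84 signals were 4.10, 4.51 and 4.04 with DEN, 4.05, 3.44 and 3.59 with CCl4, and 0.71, 0.80 and 0.34 in controls. It thus rose in all 4 comparisons, by 1.85 ± 0.16 and 3.60 ± 0.16 with DEN and by 2.79 ± 0.16 and 3.08 ± 0.16 with CCl4 at day 28 and day 84 (SE, largest adjusted p = 4.2e-06, limma), and its treated arrays lay close together where Cyp2c11 was widely spread. Its rise with DEN was larger at day 84 than at day 28, by 1.75 ± 0.23 (interaction, adjusted p = 0.00040, limma), where 7.64% of all genes were called higher and 8.41% lower.

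Sult2a6, a sulfotransferase of steroids and bile acids, rose by 3.42 and 4.12 log2 units with CCl4 at day 28 and day 84 and by 1.54 with DEN at day 84. Cyp17a1, a steroid hydroxylase, rose by 1.67, 1.98 and 0.95 in the same order. A1bg, a plasma glycoprotein well above background on 1 control array of day 84, rose by 3.28 with DEN and 2.16 with CCl4 at that day, and Akr1b7, an aldo-keto reductase, was at least 6.57-fold and at least 13.9-fold higher there, since its control arrays were not well above background. In contrast, Cyp2c7 fell by 1.85 with CCl4 at day 28, by 1.49 with DEN at day 84 (not called without any 1 of that day's controls, or without DEN replicate 1 or 2) and by 2.63 with CCl4 at day 84. Srd5a1, the steroid reductase that makes dihydrotestosterone, fell by 2.30, 1.42 and 1.19 in the same order, the last not called without control replicate 2 or CCl4 replicate 3, and Cyp2a1 fell with CCl4 at day 28 alone, by 0.96. On the spike-in scale Cyp2c7 was not called with CCl4 at day 28 (-1.05) or DEN at day 84 (-0.78). Nor was Srd5a1 with DEN (-0.72) or CCl4 (-0.65) at day 84, or Cyp2a1 with CCl4 at day 28 (-0.16). The falls of Cyp2c7 with CCl4 at day 84 and of Srd5a1 with CCl4 at day 28 kept their call.

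Of 7 relatives of Cyp2c11 in the Cyp2c family, 2 rose with DEN at day 28, 2 rose and 4 fell with CCl4 at day 28, 3 rose and 4 fell with DEN at day 84, and 3 rose and 3 fell with CCl4 at day 84. Cyp2c24 had scaled log2 signals of -0.42, -0.32 and -0.26 in DEN livers, 3.37, 3.62 and 3.07 in CCl4 livers and -3.13, -3.68 and -4.32 in control livers at day 28, where 1 control array of 3 was well above background. At day 84 it had 2.95, 3.47 and 2.55 with DEN and 2.70, 2.61 and 2.75 with CCl4, and -6.06, -5.94 and -5.56 in controls, none of them well above background. Cyp2c24 rose by 3.38 ± 0.27 with DEN and 7.06 ± 0.27 with CCl4 at day 28 (SE, adjusted p = 1.5e-06 and 2.3e-09, limma) and was at least 108-fold higher with DEN and at least 87.2-fold higher with CCl4 at day 84. Cyp2c23, an arachidonic acid epoxygenase, fell by 1.1, 0.72 and 0.60 with CCl4 at day 28, DEN at day 84 and CCl4 at day 84. None of the 3 was called on the spike-in scale (-0.30, -0.016 and -0.054), nor the last under quantile scaling (-0.30). Cyp2c6v1 fell by 0.77 with CCl4 at day 28 and by 0.90 with DEN at day 84, the first at 0.03 when scaled to spike-in probes. Cyp2c22 rose by 0.65 with DEN at day 84, a call lost without control replicate 3 or DEN replicate 1 or 3, and by 0.53 with CCl4, lost without any 1 array of either group.

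**Figure D5:**
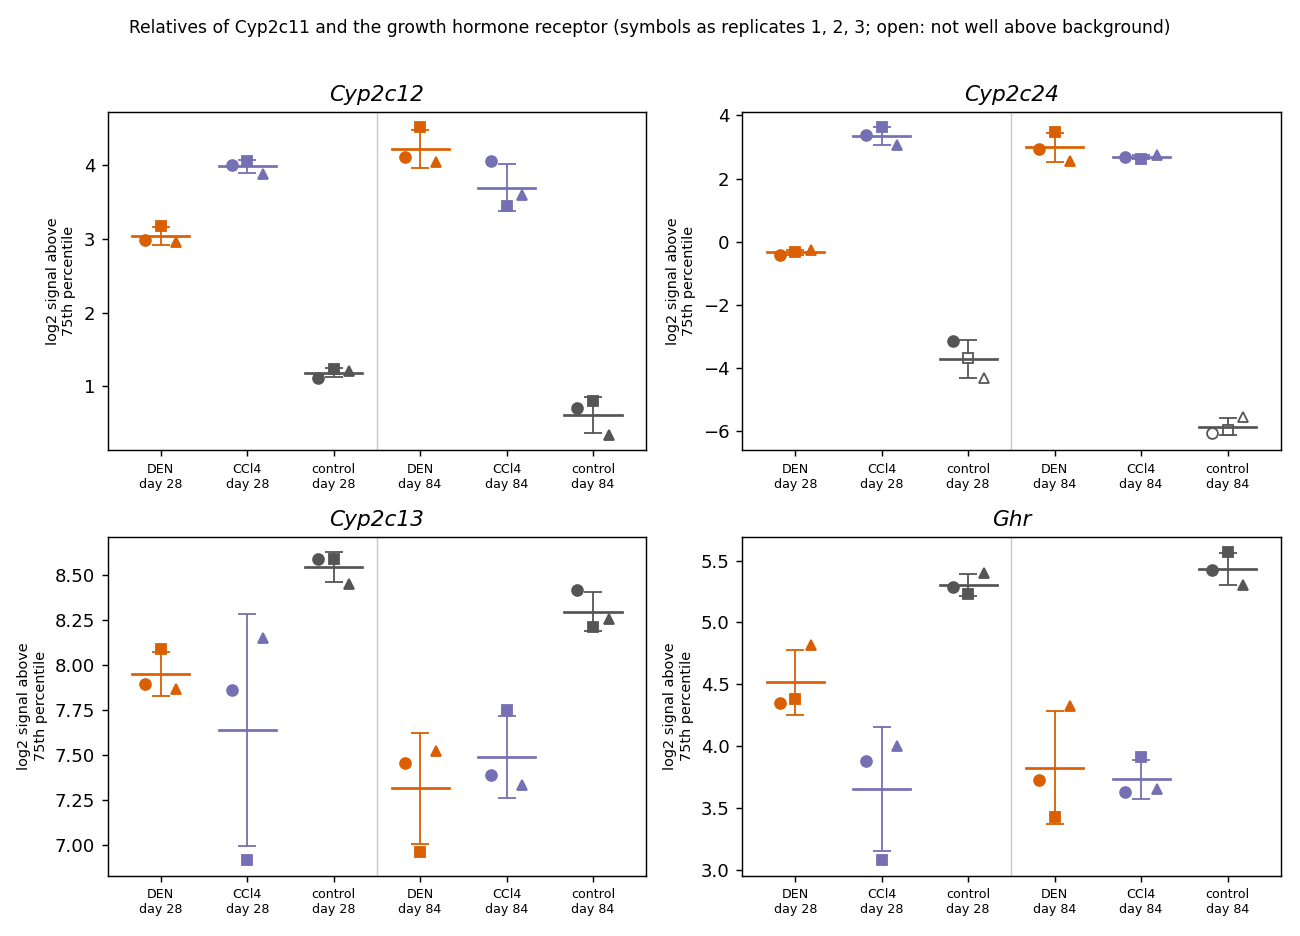
Scaled log2 signal (y axis) of Cyp2c12, Cyp2c24, Cyp2c13 and the growth hormone receptor gene Ghr in each of 18 arrays, by group (x axis), with the mean and SD of 3 arrays per group. Open symbols are arrays on which the probe was not well above background. Cyp2c12 and Cyp2c24 lie above controls in all treated groups, whereas Ghr lies below them. The mean of Cyp2c13 was lower with CCl4 at each day and with DEN at day 84, and it was not called with DEN at day 28.

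The receptor and the downstream hormone of the axis were lower in treated livers. Ghr had scaled log2 signals of 4.35, 4.38 and 4.82 in DEN livers, 3.88, 3.08 and 4.00 in CCl4 livers and 5.28, 5.23 and 5.40 in control livers at day 28. On day 84 its signals were 3.73, 3.43 and 4.32 with DEN, 3.63, 3.92 and 3.65 with CCl4, and 5.43, 5.57 and 5.30 in controls. No treated array overlapped the controls, and the second CCl4 rat of day 28 was again the lowest. Ghr fell by 0.79 ± 0.24 with DEN (adjusted p = 0.040) and 1.65 ± 0.24 with CCl4 (adjusted p = 5.3e-05) at day 28, and by 1.61 ± 0.24 (adjusted p = 0.00011) and 1.70 ± 0.24 (adjusted p = 3.4e-05) at day 84 (SE, limma). The DEN call of day 28 was lost without any 1 of its controls or DEN replicate 1 or 2, at -0.83 to -0.70. It was also lost under normexp background correction (-0.71), quantile scaling (-0.66) and spike-in scaling (-0.38). Igf1, the growth factor that the liver releases in response, fell by 1.74 with CCl4 at day 28 and by 1.21 and 1.20 with DEN and CCl4 at day 84, and was at -0.39 ± 0.21 with DEN at day 28 (SE, adjusted p = 0.21, limma).

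Of 16 genes of growth hormone signalling and the IGF axis, 2 fell and 1 rose with DEN at day 28, 8 fell and 2 rose with CCl4 at day 28, 8 fell and 3 rose with DEN at day 84, and 8 fell and 2 rose with CCl4 at day 84. Scaled to spike-in probes, which moved the median of all genes to 0.37, 0.74, 0.63 and 0.45 in these comparisons, 0, 4, 3 and 3 of the 16 fell and 3, 8, 6 and 5 rose. Jak2 passed the test in no comparison, with differences of -0.04 to 0.13. Stat5b, through which the pulses act, fell by 0.43 with DEN (not called without DEN replicate 3 or control replicate 1) and 0.75 with CCl4 at day 84, and its relative Stat5a fell by 0.34, 0.52 and 0.36 with CCl4 at day 28, DEN at day 84 and CCl4 at day 84. On the spike-in scale Stat5a was instead at 0.46, 0.19 and 0.18 in these comparisons. Stat5b was at 0.27 with DEN and -0.20 with CCl4 at day 84 on that scale, neither of them called. Bcl6, a repressor that growth hormone lowers, fell by 4.05 with CCl4 at day 28 and rose by 1.62 with DEN at day 84, while its -1.12 with CCl4 at day 84 was not called without any 1 array of either group. Igfbp2, an IGF carrier, rose by 2.88 and 3.26 with CCl4 at day 28 and day 84 and by 1.52 with DEN at day 84, while Igfbp1, another carrier, fell by 1.60 with DEN at day 28 alone, a call lost without DEN replicate 1 or 2 or control replicate 1. Socs3, a feedback inhibitor, was at least 2.27-fold higher with DEN at day 28 (adjusted p = 0.032, limma), a call lost without any 1 DEN array or control replicate 2 or 3. The Socs3 call was also lost under normexp background correction, where the difference was 0.20 log2 units, less than that bound.

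Transcription factors that hold the hepatocyte state fell in most treated groups: of 10, 3 fell with DEN at day 28, 6 fell and 1 rose with CCl4 at day 28, 9 fell with DEN at day 84 and 7 fell with CCl4 at day 84. On the spike-in scale 1, 3, 1 and 5 of the 10 fell. Hnf4a, on which male-specific liver genes also depend in mice, fell by 0.67 and 1.47 with DEN and CCl4 at day 28 and by 0.61 and 1.03 at day 84, though with DEN at day 84 its sign turned to 0.10 under spike-in scaling. Cebpa fell by 0.56 and 1.29 at day 28 and by 0.89 and 1.23 at day 84, the first not called without any 1 of its controls or DEN replicate 1 or 2. Onecut1, which encodes the HNF6 whose core motif is shown in the urinary gene windows, passed the test with DEN at day 84 alone (-2.16 ± 0.75, SE, adjusted p = 0.026, limma), and not without DEN replicate 2 (-1.67) or any 1 of that day's controls. Of 8 receptors of steroid and thyroid hormones, 3, 7, 2 and 7 fell with DEN at day 28, CCl4 at day 28, DEN at day 84 and CCl4 at day 84, and on the spike-in scale 0, 2, 0 and 1. The glucocorticoid receptor gene Nr3c1 fell in all 4 (by 0.84, 1.46, 0.98 and 0.96) and the thyroid receptor gene Thrb likewise (by 0.50, 1.01, 1.04 and 1.49), the first of these not called without control replicate 1 or 2 or DEN replicate 1 or 2.

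Relatives of Car3 and Dhrs7l1 did not share one direction. Of 10 other carbonic anhydrase genes, none passed the test with DEN at day 28 (2 higher and 1 lower at an unadjusted p under 0.05), 4 rose and 3 fell with CCl4 at day 28, 1 rose and 4 fell with DEN at day 84, and 2 rose and 2 fell with CCl4 at day 84. Car2, a widely expressed cytosolic form, rose by 4.54 ± 0.21 with DEN at day 84 (SE, adjusted p = 3.3e-09, limma), by 1.15 with CCl4 at day 28 and by 2.18 with CCl4 at day 84, while Car1, the red cell form, fell by 3.96 and 3.47 with CCl4 at day 28 and day 84 and by 1.21 with DEN at day 84. The last of these was not called without DEN replicate 2 (-0.71) or control replicate 2, and at day 28 Car1 was well above background on 1 CCl4 array. Car11, a related protein, rose by 0.54 and 2.02 with CCl4 at day 28 and day 84, a larger rise at day 84 by 1.48 ± 0.26 (interaction, adjusted p = 0.0064, limma), where 3.51% of all genes were called higher and 2.52% lower. The mitochondrial form Car5a fell by 1.66, 1.0 and 0.94 with CCl4 at day 28, DEN at day 84 and CCl4 at day 84. Its day 84 differences were not called on the spike-in scale (-0.29 with DEN and -0.39 with CCl4). Of 7 other Dhrs genes, 2 rose in each comparison and 0, 2, 1 and 3 fell (DEN and CCl4 at day 28, DEN and CCl4 at day 84). Dhrs7, whose name is nearest to Dhrs7l1, rose in all 4, by 0.46, 0.41, 1.01 and 0.33, and Dhrs7b also rose in all 4, by 0.33 to 0.68. Dhrs3, a retinal reductase, fell with CCl4, by 0.95 at day 28 (-0.15 and not called on the spike-in scale) and 0.91 at day 84.

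Over the 18 arrays the genes outside the 6 whose signal was most like that of Cyp2c11 by Pearson correlation were Cesl1 (0.980), Hal (0.978), Zfp37 (0.974), Stac3 (0.973), Prkaa2 (0.971), Pmpca (0.970), Chrnb2 (0.969) and Acat1 (0.969). Their size of change varied: Stac3 differed by -8.89 and -10.43 with CCl4 at day 28 and day 84, Hal (histidase) by -1.99 and -2.82, and Acat1 by -0.59 and -0.77. The genes most like the mean deviation of the 6 from their group means, thus with the differences between groups removed, were Mup4l4 (0.982), Mup5 (0.972), Obp3 (0.971), Dcaf11 (0.961) and Kynu (0.958). The first 3 are urinary protein genes, whose probes may read the same transcripts as those of the 3 urinary protein genes among the 6. All these correlations describe points that share RNA and array.

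Beside the falls of the 6 genes with CCl4, the summed signals of stellate, bile duct and lymphocyte genes lay above controls at each day. Those of endothelial and macrophage genes lay below. The calls of single genes were more mixed. Of 8 hepatocyte genes, 2, 8, 7 and 7 fell with DEN at day 28, CCl4 at day 28, DEN at day 84 and CCl4 at day 84, at median differences of -0.31, -0.89, -0.67 and -0.57. Under quantile scaling 0, 2, 0 and 2 of the 8 fell, and under spike-in scaling 0, 2, 0 and 0. Of 8 stellate cell genes, none rose with DEN at day 28 (none at an unadjusted p under 0.05 either), 6 rose with CCl4 at day 28, 4 rose and 1 fell with DEN at day 84, and 7 rose with CCl4 at day 84. Their summed signal was 41.2 to 48.3 with DEN and 89.8 to 170.2 with CCl4 at day 28, and 30.4 to 35.6 with DEN and 98.9 to 156.0 with CCl4 at day 84, against 24.8 to 44.1 and 18.9 to 22.9 in the controls of day 28 and day 84. Of 5 bile duct genes, 3 rose with CCl4 at day 28, 4 rose with DEN at day 84, 5 rose with CCl4 at day 84, and none rose with DEN at day 28 (none at an unadjusted p under 0.05 either), and their sums were 2.52 to 3.03 with DEN and 5.68 to 12.3 with CCl4 at day 28 and 5.51 to 9.76 with DEN and 8.88 to 11.2 with CCl4 at day 84, against 2.20 to 2.77 and 2.03 to 2.38 in controls of day 28 and day 84. Of 8 macrophage genes 2 rose with DEN at each day, and 3 rose and 3 fell with CCl4 at each day, and their summed signal lay at 161.8 to 169.98 with DEN and 98.5 to 120.6 with CCl4 against 124.8 to 162.7 in controls at day 28, and at 90.5 to 118.4 with DEN and 76.9 to 112.2 with CCl4 against 123.7 to 145.9 in controls at day 84. Of 7 lymphocyte genes, 3 rose with DEN and 4 with CCl4 at day 28, where their sums were 3.49 to 4.35 with DEN and 3.91 to 6.23 with CCl4 against 1.80 to 2.21 in controls. At day 84, 1 fell with DEN, and 4 rose and 1 fell with CCl4, with sums of 2.24 to 2.83 with DEN and 4.34 to 4.76 with CCl4 against 2.01 to 2.53 in controls. Of the lymphocyte rises with CCl4 at day 28, 1 was not called under normexp (0.015), quantile scaling (0.34) or scaling to the median (0.32). With CCl4 at day 84, 1 was not called under normexp (0.078) or scaling to the median (0.28), and with DEN at day 28, 1 was not called under normexp (0.21). Of 4 endothelial genes, 1 rose with DEN at day 28 and 2 fell in each other comparison, and their sums were 45.4 to 47.8 with DEN and 21.8 to 27.5 with CCl4 against 44.1 to 48.7 in controls at day 28, and 28.4 to 34.9 with DEN and 20.5 to 22.0 with CCl4 against 43.0 to 49.6 in controls at day 84. Over all genes, 33.6% were called lower with CCl4 at day 28, 31.1% with DEN at day 84 and 36.3% with CCl4 at day 84. On the spike-in scale the 2 endothelial falls with CCl4 at day 28 were at 0.51 (called higher) and -0.30 (not called). Those with DEN at day 84 were at 0.42 (called higher) and -0.05 (not called). Of those with CCl4 at day 84, 1 was at 0.26 (not called) and 1 kept its call. The part of these cell markers in the lower signals of the 6 genes was not tested. Acta2 (stellate), Trem2 (macrophage), and Krt7 and Spp1 (bile duct) were not well above background on every array.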

How the data were processed

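Liver RNA of 18 rats was hybridised to one-colour Agilent arrays of 62976 spots each, 1 array per rat. The deposited spot intensities are Cy3 signals, background-corrected, per the file headers, by Agilent's own scanner software (Feature Extraction, version 10.7.1.1). A deposited value table holds each array's intensities as a ratio to 1 constant, as comparing both showed, and was used as an alternative. Control spots (1439) and 18 probes with outlier flags were left out, and no remaining spot was saturated. Log2 processed signals minus each array's 75th percentile were used. Of 61519 probes, 28199 matched 15642 genes by RefSeq accession. Probes entered the test if 1 or more groups had all 3 arrays well above background, and the probe of highest mean stood for its gene (10914 genes).

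All p-values come from limma 3.58.1 in R 4.3.3 (lmFit and eBayes), with 1 mean per group over the 18 arrays and Benjamini-Hochberg adjustment over all genes tested. Nothing says more of the replicates than that they are separate animals, and with 3 arrays per group their number limits the precision. The fit was tested on simulated data. "At least" folds set the bright group against the lowest signal well above background on each dim array. The 6 genes and the lists were chosen with earlier results of these data known. Of each list, genes were named by smallest adjusted p (up to 4 per comparison) or as its first 3, as well as the 8 genes most like Cyp2c11 and the 5 most like the deviations. Figures and motif searches used Python 3.11.15. Alternatives were other backgrounds, scalings, filters, probe rules and blocks, only the groups compared, and leaving out each array. Results of some list genes are not reported here. Arrays of 1 slide per day were added after seeing the data.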

Additional observations from a re-analysis of the deposited data

Results flagged for a closer look

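The genes named here had a treatment effect that differed between day 84 and day 28 by limma's interaction term (adjusted p under 0.05 over all genes tested). The values are log2 effects at day 84 minus those at day 28, and the same arrays give both the effects and the calls. Genes with a group in which no array was well above background were left out.

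Of the relatives of Cyp2c11, Cyp2c12 had 1.75 ± 0.23 (SE, adjusted p = 0.00040, limma) for DEN. Among sex-dependent genes, Slco1a1 had -1.26 for DEN and Cyp4a2 (a fatty acid hydroxylase) had -3.20 for CCl4. Of the relatives of Car3, Car2 had 3.90 ± 0.30 and Car14 had -0.52 for DEN, and Car11 had 1.48 and Car8 had -0.86 for CCl4. Of the relatives of Dhrs7l1, Dhrs7 had 0.55 and Dhrs1 had 0.51 for DEN.

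Bcl6 had 2.5 ± 0.66 for DEN and 2.93 ± 0.66 for CCl4 (SE). Foxa1 had -1.63 and Prox1 had -0.59 for DEN. The nuclear receptor gene Nr1i2 had 0.78 for CCl4.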

How the results depend on the processing

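Of 408 treated-against-control differences of the 6 genes under alternatives, 405 kept their sign and 374 stayed within 1 SD. The exceptions were DEN at day 28 on the spike-in scale, with 0.041 for Car3 and 0.26 for Dhrs7l1, and Dhrs7l1 without control replicate 2, at 0.045 (-0.39 without control replicate 3). Of the control differences, that of Mup4 turned to 0.19 with the mean of all its probes, and a block for slide put all 6 at -5.24 to -3.10. The median of the 6 genes was -7.59 (CCl4, day 84) under normexp, -0.29 (DEN, day 28) under quantile scaling, -0.20 (DEN, day 28) and -0.92 (DEN, day 84) on the spike-in scale, and -9.19 (CCl4, day 84) with slide as a block or 1 slide per day. Leaving out 1 array gave medians of -0.70 to -0.53 (DEN) and -6.19 to -3.09 (CCl4) at day 28, and -1.88 to -1.25 (DEN) and -8.74 to -7.70 (CCl4) at day 84. Among the controls none of the 6 was called in 102 values (lowest adjusted p = 0.055, limma).

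Male-predominant genes that fell with DEN at day 28 numbered 1 under normexp, slide block or 1 slide per day, and 7 with only the groups compared. At day 28 with CCl4 they numbered 4 (quantile), 3 (spike-in) and 4 (only the groups compared), and with DEN at day 84 they numbered 4 (quantile) and 3 (spike-in). Leaving out 1 array gave 0 to 0 with DEN and 5 to 9 with CCl4 at day 28, and 4 to 8 with DEN and 9 to 9 with CCl4 at day 84. Female-predominant genes that rose with DEN at day 28 numbered 4 on the spike-in scale and 2 with slide block or only the groups compared, and 3 rose with each agent at day 84 when a probe had to be well above background on each of the 18 arrays. Leaving out 1 array gave 1 to 2 with DEN (2 without control replicate 3) and 3 to 4 with CCl4 at day 28, and 5 to 6 with DEN and 6 to 6 with CCl4 at day 84. The cause was not tested.

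On the spike-in scale 6 of 109 called values of the named genes turned sign: Stat5a 0.46, 0.19 and 0.18 (CCl4 day 28, DEN day 84, CCl4 day 84), Stat5b 0.27 and Hnf4a 0.10 (DEN day 84), and Cyp2c6v1 0.031 (CCl4 day 28). Another 35 lost their call. Of all 274 called values of the lists, 40 turned sign and 77 lost their call. This scale made 98.2%, 94.2%, 96.3% and 89% of all calls higher (DEN and CCl4 at day 28, then at day 84), quantile scaling 65%, 52.7%, 48.9% and 51%, and the 75th percentile 52.1%, 43.7%, 40.9% and 43.5%. A block for slide left 49 calls between the controls, against 1066 without it.

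Replicate numbers did not pair the samples (same-number correlations of -0.049 to 0.13). With replicate block 1557, 6471, 5683 and 6978 genes were called, against 1639, 6514, 5750 and 7013, and 2 female-predominant genes rather than 1 rose with DEN at day 28.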
